A study of Mus musculus with 3 samples.

Results

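Peaks of the nuclear receptor RXRA were examined at the zinc finger genes of the mouse that carry the name Zfp followed by a number. The members were all protein-coding RefSeq genes of build mm10 with such a symbol, 397 of 21900 protein-coding genes. A gene was called marked in a library where a peak of that library overlapped, by at least 1 bp, a window of 1 kb to either side of either gene end. A gene was called tandem where another Zfp gene lay within 100 kb and isolated otherwise, which gave 226 tandem genes in 52 clusters and 171 isolated genes. The choice of genes used names and positions only, and no peak.

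The study mapped RXRA with CUT&RUN: a nuclease tethered to an antibody cuts the DNA next to the protein inside permeabilised cells, and the fragments that come free are sequenced. There were 3 libraries, 1 from 10000 haematopoietic stem cells (HSC) and 2 from 50000 multipotent progenitors each (MPP, with replicates 1 and 2 written MPP1 and MPP2), all sorted from bone marrow. Both sorts took lineage-negative cells with cKit and Sca1, the HSC being CD150-positive without CD48 and the MPP CD150-negative. The mice were C57BL/6 of about 10 months with the genotype given as VavCre+; WT, were called Rxrabfl/fl (WT) in the growth protocol, and were pooled by 3 or 4. Vav-Cre is a recombinase driven in blood cells by the Vav promoter. All libraries shared the genotype and an exposure to bexarotene, a drug that activates RXR, given as 1 mM for 1 h. A library with a control antibody and a library without the drug were not analysed here. The labels do not say whether the MPP libraries came from separate pools of mice, so their agreement may be technical. Peak lists hold no expression values, so the sorted cell types could not be checked against marker genes.

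RXRA binds DNA as a partner of other nuclear receptors, such as the retinoic acid, vitamin D and thyroid hormone receptors, at repeats of the half-site AGGTCA. Most Zfp genes encode proteins with arrays of C2H2 zinc fingers, each finger reading a few bases of DNA. Many of them also carry a KRAB domain, which recruits the corepressor TRIM28 and silences transposable elements. KRAB genes arose by repeated duplication and lie in clusters of similar genes. The name is not a single family, however, since the Zfp36 genes encode CCCH fingers that bind messenger RNA and speed its decay.

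The promoters that the results turn on are printed here 5′ to 3′ along the gene, from 250 bases before the annotated start to 50 after it, with every CG in capitals. The first 4 belong to genes of high RXRA fold, and the others to pairs of near-identical promoters that were marked in one case and not in the other. They were chosen after the peak values were seen. All were taken from RefSeq on GRCm38.p6, the assembly of mm10. On the plus strand lie Zfp961 (chr8:71950816-71951115), Zfp619 (chr7:39517516-39517815), Zfp617 (chr8:71922575-71922874), Zfp943 (chr17:21962309-21962608), Zfp758 (chr17:22361213-22361512) and Zfp967 (chr2:176520754-176521053). On the minus strand lies Zfp963 (chr8:69749913-69750212).
Zfp961: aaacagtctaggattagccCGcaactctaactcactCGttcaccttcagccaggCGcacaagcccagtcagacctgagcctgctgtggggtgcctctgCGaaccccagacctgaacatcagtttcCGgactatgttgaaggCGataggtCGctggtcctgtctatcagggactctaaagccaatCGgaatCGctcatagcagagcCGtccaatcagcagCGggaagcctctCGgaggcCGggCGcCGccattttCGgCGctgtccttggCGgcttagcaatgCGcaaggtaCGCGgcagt
Zfp963: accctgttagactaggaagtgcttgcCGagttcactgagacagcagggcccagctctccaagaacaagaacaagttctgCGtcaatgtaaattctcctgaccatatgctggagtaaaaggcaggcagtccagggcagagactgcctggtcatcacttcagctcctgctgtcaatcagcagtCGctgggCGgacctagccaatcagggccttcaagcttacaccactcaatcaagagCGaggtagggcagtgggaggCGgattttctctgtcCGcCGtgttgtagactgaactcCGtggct
Zfp619: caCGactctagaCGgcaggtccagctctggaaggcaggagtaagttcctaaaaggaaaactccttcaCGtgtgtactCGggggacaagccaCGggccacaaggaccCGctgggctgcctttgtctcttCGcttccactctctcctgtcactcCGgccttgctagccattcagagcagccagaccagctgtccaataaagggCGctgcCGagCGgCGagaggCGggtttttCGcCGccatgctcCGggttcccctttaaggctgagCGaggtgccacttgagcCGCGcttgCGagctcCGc
Zfp617: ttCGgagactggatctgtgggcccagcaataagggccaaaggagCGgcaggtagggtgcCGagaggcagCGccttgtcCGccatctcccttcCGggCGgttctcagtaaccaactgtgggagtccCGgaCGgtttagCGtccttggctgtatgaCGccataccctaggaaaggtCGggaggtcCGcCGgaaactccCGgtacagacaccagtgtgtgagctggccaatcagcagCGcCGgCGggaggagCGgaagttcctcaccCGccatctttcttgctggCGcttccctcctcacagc
Zfp943: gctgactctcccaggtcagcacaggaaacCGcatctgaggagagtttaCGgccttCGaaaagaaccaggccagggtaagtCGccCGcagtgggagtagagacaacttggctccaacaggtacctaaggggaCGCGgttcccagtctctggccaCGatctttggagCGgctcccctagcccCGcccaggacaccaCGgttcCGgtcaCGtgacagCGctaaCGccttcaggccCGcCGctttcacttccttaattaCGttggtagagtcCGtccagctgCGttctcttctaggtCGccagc
Zfp758: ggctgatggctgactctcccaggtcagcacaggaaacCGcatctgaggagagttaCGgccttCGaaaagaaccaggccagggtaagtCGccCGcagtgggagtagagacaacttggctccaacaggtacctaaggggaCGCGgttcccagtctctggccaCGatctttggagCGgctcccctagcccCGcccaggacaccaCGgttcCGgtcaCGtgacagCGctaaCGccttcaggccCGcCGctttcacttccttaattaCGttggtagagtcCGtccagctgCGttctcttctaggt
Zfp967: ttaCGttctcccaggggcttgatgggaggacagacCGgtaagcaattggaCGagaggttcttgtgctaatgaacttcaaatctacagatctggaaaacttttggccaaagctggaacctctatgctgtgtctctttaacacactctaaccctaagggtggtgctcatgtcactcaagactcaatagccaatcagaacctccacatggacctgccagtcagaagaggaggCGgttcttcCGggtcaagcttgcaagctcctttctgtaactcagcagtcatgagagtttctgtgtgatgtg

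The promoters shown differed in CG content. Zfp961, Zfp619, Zfp617 and Zfp943 each held 21 CG, and Zfp758 held 20. Zfp963 held 9, and Zfp967, whose letters are the same as those of Zfp966, held 5. The half-site AGGTCA, searched on both strands, was found once in each of Zfp943 and Zfp758 and in none of the other 5 promoters shown. Zfp961 and Zfp963, the genes of highest fold in MPP1, thus hold no exact half-site in this window. The summits of Zfp963 and Zfp619 lay downstream of the window in each library, so the letters under them are not shown.

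The deposited lists held 4047 peaks in HSC, 29848 in MPP1 and 19570 in MPP2. The lowest background recovered from the peaks was 0.604 fragments in HSC, 2.87 in MPP1 and 1.08 in MPP2, and the weakest peaks rested on 5, 10 and 6 fragments. The HSC list was thus the shortest, with the lowest background and from the fewest cells, and cell type, cell number and depth cannot be told apart between HSC and MPP. With 1 HSC library no difference between the cell types had a replicate check.

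RXRA peaks were more frequent at Zfp genes than at protein-coding genes at large in MPP1 and MPP2, though not in HSC. In HSC, 30 Zfp genes were marked, 7.56% of the 397 (95% exact Clopper-Pearson interval 5.16 to 10.6), beside 8.21% of all protein-coding genes. In MPP1, 224 were marked, 56.4% (51.4 to 61.4), beside 41.2% of all genes. In MPP2, 203 were marked, 51.1% (46.1 to 56.2), beside 36.0% of all genes. Peaks in both MPP libraries marked 164 Zfp genes, 41.3% (36.4 to 46.3), beside 28.9% of all genes. Peaks in all 3 libraries marked 23, 5.79% (3.71 to 8.57), beside 5.83% of all genes. The intervals cover counting error only, and neighbouring genes are not independent, so true uncertainty is wider.

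The MPP lists agreed on most Zfp genes. Of the genes marked in MPP1, 73.2% were marked in MPP2, beside 70.1% for all marked genes. Of those marked in MPP2, 80.8% were marked in MPP1, beside 80.3% for all. End peaks of the 2 libraries overlapped at 159 of the 164 shared genes, with a median of 47 bp between the summits of the strongest peaks. Overlap and summit distance were not taken over all genes. No end peak in any library was recorded for 134 Zfp genes, 33.8%, beside 51.4% of all protein-coding genes. All 30 genes marked in HSC were marked in at least 1 MPP library. Of these, 29 (96.7%) were marked in MPP2 and 24 (80.0%) in MPP1, beside 92.3% and 75.1% of all genes marked in HSC. No Zfp gene was marked in HSC alone, so the rule for naming such genes named none. Of all 21900 protein-coding genes, 10569 were marked in either MPP library and 11266 in no library. Genes marked in HSC alone were thus rare over all genes too, and their absence here is not read as a trait of Zfp genes.

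The excess in MPP, in percentage points, was smaller with shorter lists, where the share of all genes was also lower. With each MPP list held to its peaks of highest fold, as many as HSC has, 39 Zfp genes were marked in MPP1 (9.82%, beside 8.83% of all genes). In MPP2, 53 were marked (13.4%, beside 10.1%). The peaks at Zfp genes were of ordinary strength, as the next values show. The deposited fold is the peak caller's ratio of the fragment pileup at the summit to the local background and ranks peaks only within a list. The median fold of the strongest peak at a marked Zfp gene was 5.56 in HSC, 4.72 in MPP1 and 5.89 in MPP2. Over all marked genes the medians were 5.50, 4.86 and 6.13. The median pileup at marked Zfp genes was 8.5 fragments in HSC, 19 in MPP1 and 13 in MPP2.

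**Figure D1:**
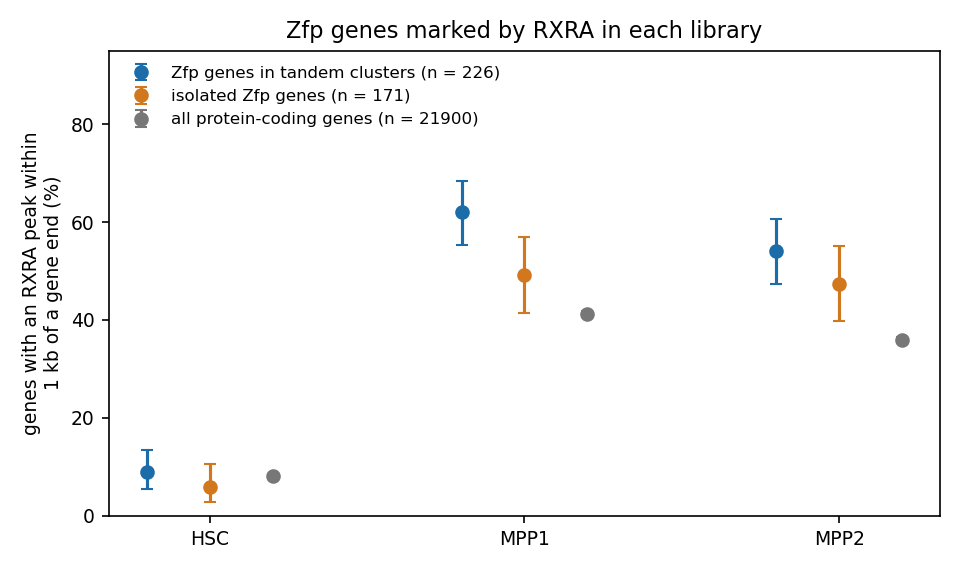
Share of genes with an RXRA peak within 1 kb of a gene end (y axis, percent) in each of the 3 libraries, for the 226 tandem Zfp genes, the 171 isolated Zfp genes and all 21900 protein-coding genes; bars are 95% exact binomial intervals. In both MPP libraries the tandem genes are highest and all genes lowest, while in HSC all 3 sets lie between 5.85% and 8.85%.

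Tandem Zfp genes were marked more often than isolated ones in each library, by 12.8 percentage points in MPP1, 6.61 in MPP2 and 3.00 in HSC. The tandem and isolated shares in MPP1 were 61.9% (140 of 226, 55.3 to 68.3) and 49.1% (84 of 171, 41.4 to 56.9). In MPP2 they were 54.0% (122 genes, 47.3 to 60.6) and 47.4% (81 genes, 39.7 to 55.1), and in HSC 8.85% (20 genes, 5.49 to 13.3) and 5.85% (10 genes, 2.84 to 10.5). The intervals of the 2 sets overlapped in all 3 libraries, by the least in MPP1. In the plot of shares by library the isolated genes also lay above all genes in both MPP libraries and below them in HSC. The median gap to the nearest Zfp gene was 11.1 kb for tandem and 2333 kb for isolated genes.

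The difference between tandem and isolated genes was sensitive to peaks shared with a neighbour of another kind. Counting only peaks that reach no window of a gene outside the Zfp set, the difference was 19.8 points in MPP1 and 17.1 in MPP2. Isolated genes owed more of their marks to such shared peaks, 15 of 84 in MPP1 and 21 of 81 in MPP2, against 4 of 140 and 4 of 122 tandem genes. In HSC, 5 of the 10 marked isolated genes were marked by shared peaks alone, and 0 of 20 tandem genes were. Peaks shared between Zfp genes, which were the strongest at 12 tandem genes in MPP1 and 11 in MPP2, stayed in this count. Isolated genes have no Zfp gene within 100 kb, so only tandem genes could keep shared peaks under this rule. The rule thus favours tandem genes by definition, and its part in the larger differences was not tested. A shared peak cannot be assigned to either gene. Examples are Zfp511, whose peaks reach Tubgcp2 in each library that marks it, and Zfp654, whose HSC peak reaches Cggbp1.

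The tandem label turns on distance. The genes just inside the limit were Zfp263 at 96.4 kb, Zfp972 at 97.6 kb, and Zfp932 and Zfp605 at 97.8 kb from each other. Those just outside were Zfp936 and Zfp715 at 104.4 kb, Zfp653 at 116.8 kb and Zfp781 at 117.6 kb. In both MPP libraries, Zfp263, Zfp932, Zfp605, Zfp715 and Zfp653 were marked and the other 3 were not.

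The share marked did not climb steadily with the size of the cluster. In MPP1 it was 47.7% in clusters of 2 genes, 62.0% in clusters of 3 or 4, 69.0% in clusters of 5 to 9 and 63.9% in clusters of 10 or more. In MPP2 the shares were 47.7%, 54.0%, 60.6% and 50.8%, in the same order. In HSC they were 6.82%, 10.0%, 12.7% and 4.92%. Pairs therefore stood close to isolated genes. Clusters of 5 to 9 had the highest share in every library, above the largest clusters. The exact intervals of every cluster size overlapped in each library, however, so the order is not established. For clusters of 5 to 9 and of 10 or more they were 56.9 to 79.5 and 50.6 to 75.8 in MPP1. In HSC they were 5.96 to 22.7 and 1.03 to 13.7. The HSC shares rested on only 3, 5, 9 and 3 marked genes, from the smallest clusters to the largest.

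The clusters differed from each other. The largest, on chromosome 13 from 67038594 to 67827000, holds 23 genes, of which 3 were marked in HSC, 14 in MPP1 and 13 in MPP2. The second, on chromosome 7 from 29768552 to 30169775, holds 15 genes, with 0, 12 and 8 marked in those libraries. It includes Zfp568, a KRAB repressor of a placental Igf2 transcript. The third, on chromosome 17 from 21383707 to 21994366, holds 13 genes, with 0, 10 and 8 marked. The next clusters by size had fewer marks. On chromosome 7 from 24081877 to 24316698, 10 genes from Zfp180 to Zfp94 had 0, 3 and 2 marked, and on chromosome 4 from 147124882 to 147849126, 9 genes had 1, 4 and 3 marked.

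HSC peaks were found in 14 of the 52 clusters. A cluster on chromosome 8 from 69610654 to 69774911, chosen after its values were seen, had 3 of its 5 genes marked in HSC (Zfp868, Zfp869 and Zfp963), all 5 in MPP1 and 4 in MPP2. A second on the same chromosome, from 71882068 to 71970333, holds Zfp709, Zfp882, Zfp617 and Zfp961, with 1, 4 and 3 marked. In 17 clusters every gene was marked in at least 1 library. In 5 clusters, holding 11 genes, none was. By chromosome, the 27 members on chromosome 2 were marked at the lowest share in both MPP libraries among the chromosomes with over 20 members, with 0 in HSC, 9 in MPP1 and 6 in MPP2.

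**Figure D2:**
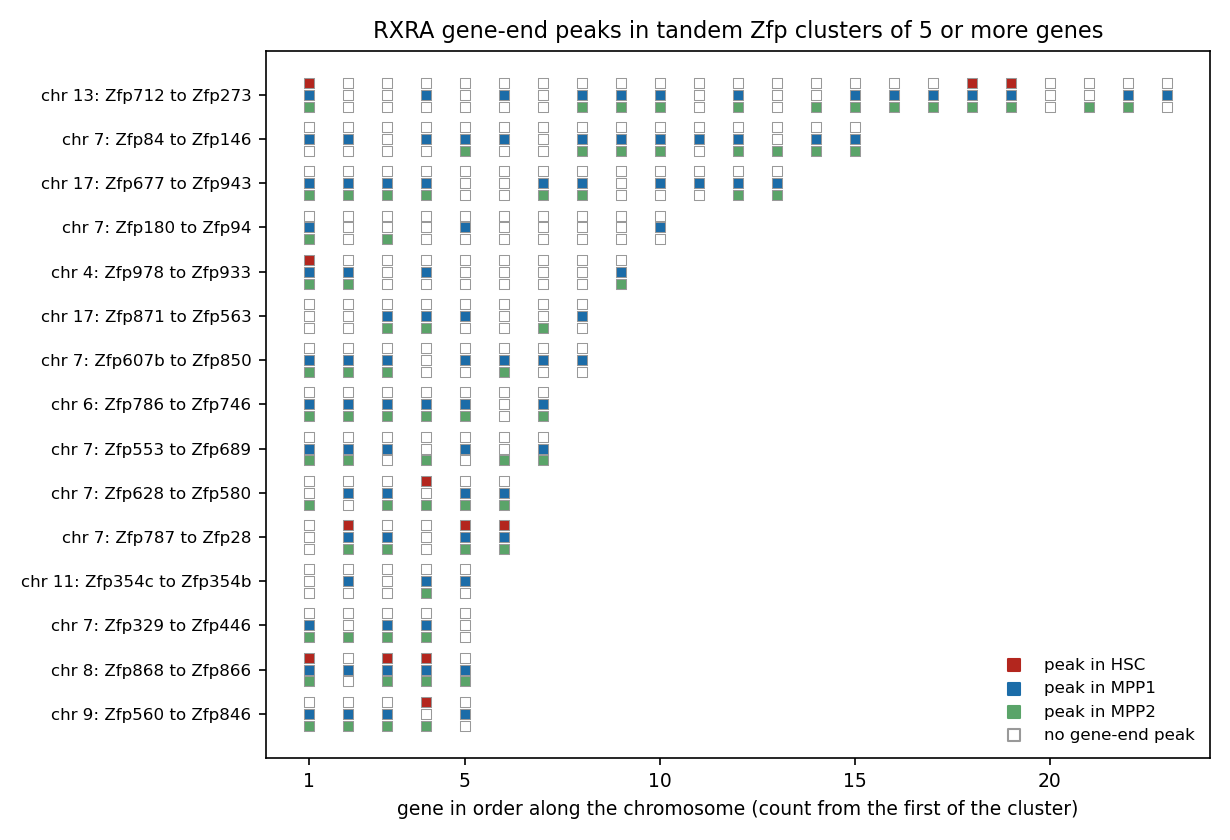
The 15 tandem clusters of 5 or more Zfp genes, 1 line of genes per cluster in chromosome order (x axis, count from the first gene), with a filled square for a gene-end peak in HSC (top), MPP1 (middle) and MPP2 (bottom). Most clusters hold both marked and unmarked genes, and 9 of the 15 clusters have no HSC peak.

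Peaks lay at the starts of Zfp genes and rarely at the other end. The strand and start were known for 331 of the members. In HSC, 25 of these had a peak at the start (7.55%, beside 8.06% of all genes with a known start) and 1 at the other end (0.302%, beside 0.692%). In MPP1, 183 had a peak at the start (55.3%, beside 38.8%) and 11 at the other end (3.32%, beside 5.89%). In MPP2, 164 had a peak at the start (49.5%, beside 35.3%) and 10 at the other end (3.02%, beside 3.82%). The excess over all genes was thus seen at starts in both MPP libraries and not at the other ends. Zfp36, which encodes tristetraprolin, had its strongest MPP1 peak at the start (fold 4.07, 27 fragments) and its MPP2 peak, also of 27 fragments, by the other end (fold 6.18).

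Most summits lay close to an annotated start. The median position of the summit relative to the nearest start in the RefSeq promoter table was 21 bp downstream in HSC and −2 bp and −18.5 bp in MPP1 and MPP2, where minus is upstream. The summit lay within 250 bp of the start for 19 of 25 genes in HSC (76.0%), 146 of 183 in MPP1 (79.8%) and 139 of 164 in MPP2 (84.8%). That start can differ from the gene's own start in the gene table, where the end windows were set. It lay over 2 kb from the summit for 6 genes in MPP1, 5 in MPP2 and 0 in HSC. Relative to the gene table's start, a choice added after the data were seen, the medians were 80, 54 and 35.5 bp downstream in HSC, MPP1 and MPP2. By that start 80.0%, 74.3% and 82.9% of the genes had the summit within 250 bp. These genes were chosen by a peak within 1 kb of the gene table's start, so some closeness is built in. Summit positions were not taken over all genes, so the values are not read as a trait of Zfp genes.

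Within gene bodies, isolated genes had peaks more often than tandem genes. Peaks inside the gene and beyond the end windows were found in 33.3% of isolated and 17.3% of tandem genes in MPP1, beside 27.1% of all protein-coding genes. In MPP2 these shares were 26.9% and 12.4%, beside 19.2%, and in HSC 5.85% and 3.10%, beside 4.97%. Isolated genes were longer, with a median of 20.2 kb against 15.9 kb, so the shares are not per length. The isolated gene Zfp704 had no end peak but 10 inside peaks in MPP1 and 2 in HSC, and Zfp710 had 5 in MPP2.

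**Figure D3:**
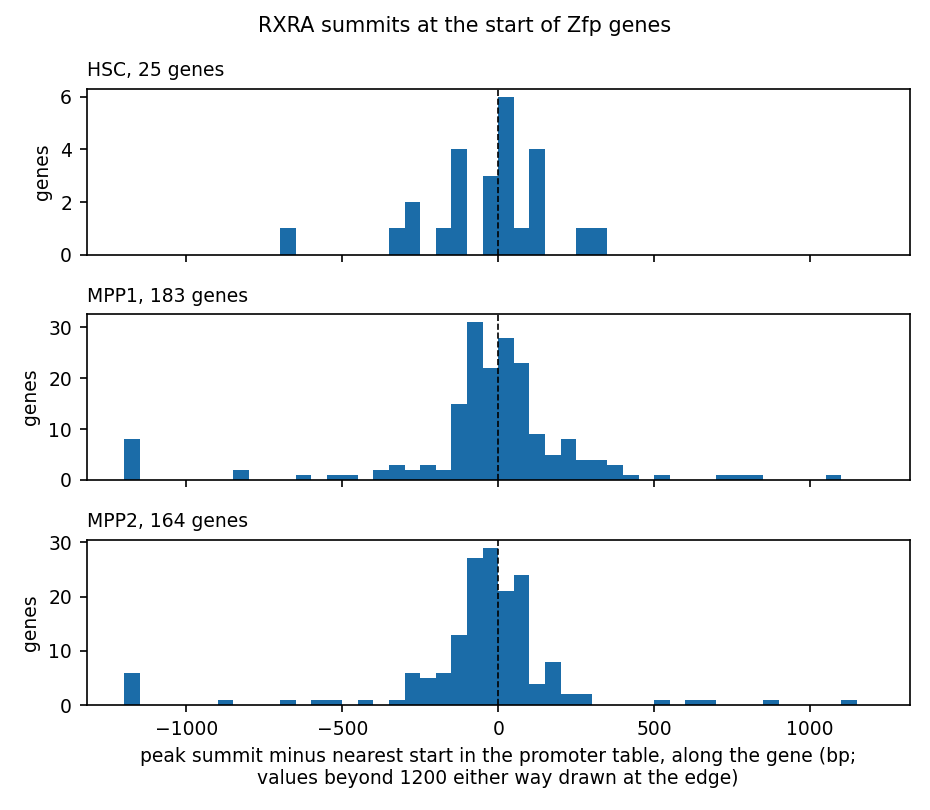
Distance of the strongest start peak's summit from the nearest start in the promoter table along the gene (x axis, bp, minus is upstream), counted in steps of 50 bp for the Zfp genes with a start peak (y axis, genes) in each library. Most summits gather near that start, with medians of 21, −2 and −18.5 bp in HSC, MPP1 and MPP2.

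Zfp619, Zfp961 and Zfp963 had the highest HSC folds of the 23 genes with a peak in every library. Zfp961, on chromosome 8 from 71951048 to 71970333, carried 14 fragments in HSC (exact Poisson interval 7.65 to 23.5), 42 in MPP1 (30.3 to 56.8) and 28 in MPP2 (18.6 to 40.5). Its folds were 7.71, 11.1 and 12.8, the highest of any Zfp gene in both MPP libraries and the third in HSC. Among all marked genes of each list its fold stood at percentile 96.4, 99.8 and 99.6. Its promoter, printed above, overlaps the peak in each library.

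Zfp963, on chromosome 8 from 69741639 to 69749962, carried 11, 40 and 22 fragments in HSC, MPP1 and MPP2, with folds of 7.04, 9.63 and 9.95. Its printed promoter window held only 9 CG. The summits lay 273, 315 and 271 bp downstream of the start in HSC, MPP1 and MPP2, outside that window. The CG count is thus not one of the letters under the summits. Zfp619, on chromosome 7 from 39517766 to 39540415, had the highest HSC fold of the Zfp genes, 8.38 from 13 fragments (6.92 to 22.2). Its MPP folds were 4.91 and 9.26, from 18 and 19 fragments. It was thus near the middle of the MPP1 list, at percentile 52.3, and near the top of the MPP2 list, at percentile 92.7.

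The other genes with the highest HSC folds among those marked in all libraries were mostly tandem. Zfp78 had folds of 6.78, 8.14 and 8.66 in HSC, MPP1 and MPP2. Its strongest MPP1 peak is the one at the start of Zfp28, whose first base lies 600 bp past the end of Zfp78, while its strongest HSC and MPP2 peaks lie at its own start. The folds of Zfp869 were 6.57, 6.41 and 7.61. Zfp712, the first gene of the chromosome 13 cluster, had folds of 6.24, 5.43 and 8.17. The remaining 4, Zfp511, Zfp444, Zfp868 and Zfp174, had HSC folds from 5.61 (Zfp174, which encodes a SCAN domain factor) to 6.18 (Zfp511). All 10 peaks in HSC rested on 8 to 14 fragments.

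Of the genes with a peak in MPP1 and MPP2 but none in HSC, Zfp593 ranked first. This isolated gene, whose product acts in maturation of the large ribosomal subunit, had folds of 9.22 (40 fragments) and 9.77 (26 fragments). Zfp330, which encodes a nucleolar protein, had 7.84 and 9.50. Zfp322a, a gene of pluripotent cells, had 6.98 and 8.65, and Zfp456 of the chromosome 13 cluster had 6.98 and 9.13. Zfp617, the neighbour of Zfp961, had 24 fragments in each MPP library and folds of 6.46 and 11.2. The other 5, Zfp827, Zfp655, Zfp7, Zfp87 and Zfp566, had MPP1 folds of at least 6.26 and MPP2 folds of 7.86 to 9.59.

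A few genes were marked in HSC and in only 1 MPP library. Zfp143, which encodes an activator of many housekeeping promoters, had 15 fragments in HSC (fold 7.37) and 15 in MPP2 (fold 5.49), with no peak in MPP1. Zfp654 had a fold of 8.10 in HSC and 9.89 in MPP2, with no end peak in MPP1. The same was seen for Zfp97, Zfp266, Zfp473 and Zfp865. Only Zfp131 was marked in HSC and MPP1 and not in MPP2. For 6 of these 7 genes the missing peak is thus one of the longer MPP list, and a gene without a peak may still hold signal under the peak caller's threshold.

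**Figure D4:**
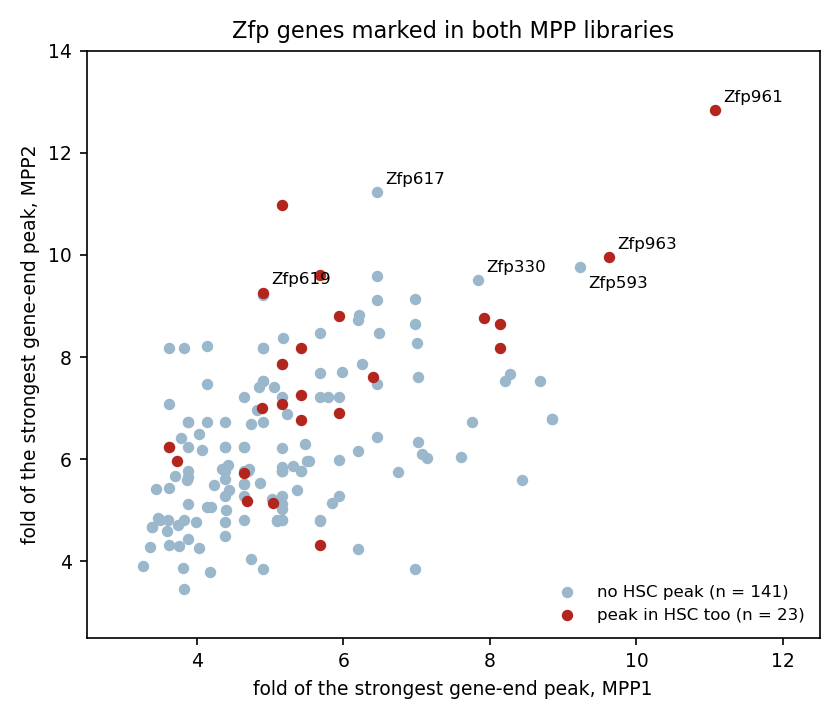
Deposited fold of the strongest gene-end peak in MPP1 (x axis) and MPP2 (y axis) for the 164 Zfp genes marked in both, with the 23 genes also marked in HSC in red. Zfp961 stands at the top right with folds of 11.1 and 12.8, and Zfp617 and Zfp619 are higher in rank in MPP2 than in MPP1.

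By role, marks in the MPP libraries were spread over every list. The list of RNA processing and translation genes had 9 members, all isolated, with 0 marked in HSC, 9 in MPP1 and 6 in MPP2. It includes Zfp622, which acts in ribosome maturation (folds of 4.85 and 7.42 in MPP1 and MPP2), Zfp346, which binds double-stranded RNA (4.91 and 9.22), and Zfp207, a spindle and splicing protein (6.46 and 6.43). Zfp598, the ubiquitin ligase that senses collided ribosomes, was marked in MPP1 only (3.87). Of the 4 CCCH decay genes, Zfp36 and Zfp36l2 were marked in both MPP libraries and Zfp36l1 and Zfp36l3 in none. These lists are small and were written with earlier results known, and their counts are descriptions beside the 41.2% and 36.0% of all genes.

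KRAB repressors with named targets had 9 members, 8 of them tandem, with 0 marked in HSC, 7 in MPP1 and 4 in MPP2. Those in both MPP libraries were Zfp57, which keeps methylation at imprinted regions (3.88 and 6.25, by a peak shared with Mog), Zfp568 (5.17 and 5.02), Zfp809, which silences retroviral DNA (3.88 and 5.12), and Zfp932 (4.65 and 4.8). Zfp445, which also acts at imprinted regions, was marked in MPP1 only (5.01, shared with Zkscan7). Zfp708 and Zfp819 had no end peak in any library.

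Promoter and chromatin factors had 10 members, with 1 marked in HSC (Zfp143), 4 in MPP1 and 6 in MPP2. Zfp384, the mouse counterpart of a gene rearranged in acute leukaemia, had folds of 5.17 and 8.37 in the MPP libraries. Zfp410, a regulator of Chd4, had 5.10 and 4.78 from peaks shared with Ptgr2. For blood and immune cells 8 of the 9 listed genes were members, with 0, 4 and 2 marked. Zfp91, which encodes a ubiquitin ligase of the NF-κB pathway, had 7.61 and 6.03, by a peak shared with Lpxn, and Zfp292 had 3.50 and 4.81. Pluripotency genes had 4 members, with 0, 3 and 2 marked, and Zfp42, known as Rex1, was not marked.

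Promoter CpG content differed between Zfp genes and other genes, and between tandem and isolated genes. The ratio of observed to expected CG in the promoter window, taken from the promoter of highest ratio where a gene has several, was at most 0.3 for 10.9% of Zfp genes and 30.6% of other genes. It was 0.3 to 0.6 for 32.9% and 18.7%, 0.6 to 0.9 for 44.1% and 31.5%, and above 0.9 for 12.1% and 19.1%. The median was 0.60 for tandem and 0.751 for isolated genes. It was 0.695 for Zfp genes marked in both MPP libraries, 0.622 for those marked in 1 and 0.540 for those with no peak. Several promoters were listed for 38 of 136 isolated genes and 19 of 195 tandem genes, so isolated genes had more windows to take the highest ratio from. For 42 of the 331 Zfp genes with a promoter, no start in the promoter table lay within 1 kb of the gene table's start, so their promoter letters are not those under the end window.

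Within CpG classes the excess at Zfp genes in MPP, in percentage points, was largest at intermediate content. At most 0.3, 19.4% of 36 Zfp genes and 11.8% of other genes were marked in MPP1, and 16.7% and 7.90% in MPP2. From 0.3 to 0.6, 59.6% of Zfp and 36.0% of other genes were marked in MPP1, and 46.8% and 27.3% in MPP2. From 0.6 to 0.9 the shares were 65.8% and 61.8% in MPP1, and 65.8% and 56.2% in MPP2. Above 0.9, fewer Zfp genes than other genes were marked, 55.0% against 59.9% and 42.5% against 59.9%. In HSC, Zfp genes were above other genes at most 0.3 (5.56%, 2 of 36 genes, against 1.48%) and from 0.3 to 0.6 (6.42% against 5.21%). They were below other genes from 0.6 to 0.9 (8.90% against 13.9%) and above 0.9 (7.50% against 14.8%). With other genes weighted to the CpG mix of the Zfp genes, their share was 47.6% in MPP1, against 57.4% of Zfp genes with a promoter. It was 41.9% against 51.4% in MPP2, and 9.78% against 7.55% in HSC.

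The tandem difference turned negative in MPP2 once CpG content was matched over the genes with a promoter. With isolated genes weighted to the CpG mix of tandem genes, their share in MPP2 was 54.1%, against 52.3% of tandem genes. Unweighted, the isolated share over the genes with a promoter was 50.0%, so the difference there was already smaller than over all members. In MPP1 the weighted share was 50.8% against 62.1%, and in HSC 5.43% against 8.72%. From 0.3 to 0.6 in particular, 43.6% of 78 tandem and 54.8% of 31 isolated genes were marked in MPP2, while in MPP1 the shares were 64.1% and 48.4%. The part that CpG content plays in the marks was not tested.

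**Figure D5:**
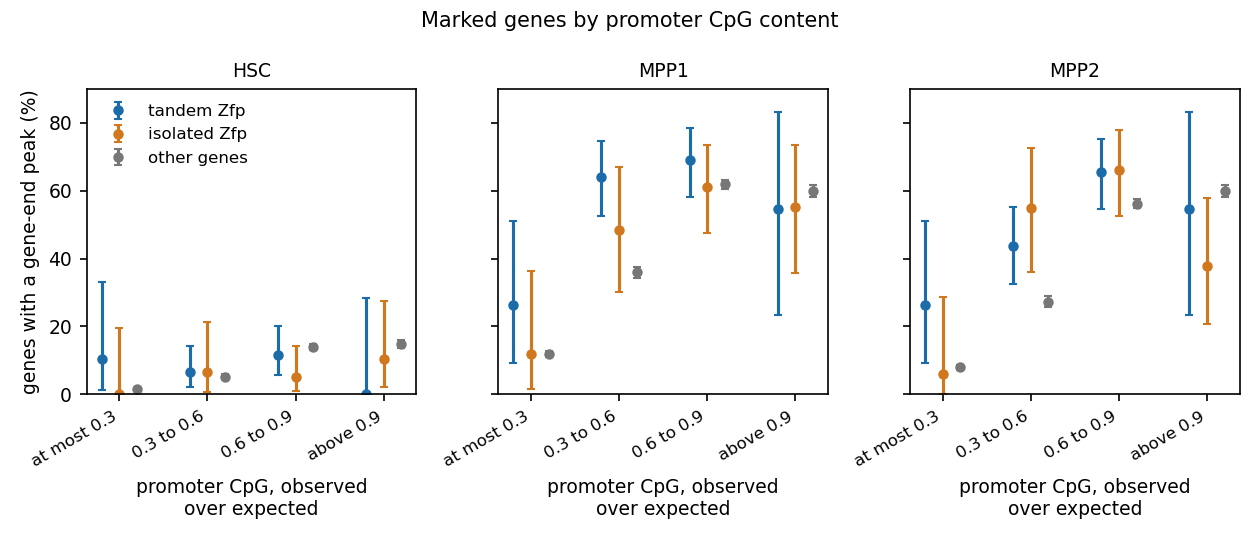
Share of genes with a gene-end peak (y axis, percent) by the observed over expected CG ratio of the promoter (x axis, 4 classes) in each library, for tandem Zfp, isolated Zfp and other genes; bars are 95% exact binomial intervals. From 0.3 to 0.6 both Zfp sets lie above other genes in both MPP libraries, and tandem and isolated genes swap order between MPP1 and MPP2.

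Exact receptor half-sites were no more common in Zfp promoters than elsewhere. AGGTCA, on either strand, was found in 14.2% of 331 Zfp promoter sets and in 16.7% of 17492 genes. It was in 13.1% of Zfp genes marked in both MPP libraries and 13.9% of those with no peak. Direct repeats of AGGTCA with 1, 4 or 5 bases between were found in 0 of 331 Zfp genes, and in 10, 0 and 1 of all 17492 genes. The letters are a strict spelling in a window of 300 bases, and their absence says nothing about the receptor.

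The shares of 2 other short words, GGGCGG and CCGGAA, differed by mark. GGGCGG, the GC box, was in 56.9% of Zfp genes marked in both MPP libraries and 35.2% of those with no peak, with 46.8% over all 331 and 49.2% over all genes. It was in 39.0% of tandem and 58.1% of isolated genes, the reverse of the order of their marks. A word counted where any promoter of a gene held it, and more isolated than tandem genes have several promoters. CCGGAA, the core of ETS factor sites, was in 37.8% of Zfp genes against 20.9% of all genes, in 42.3% of those marked in both MPP libraries and in 27.8% of those with no peak. CACGTG, the E-box of MYC and its relatives, was in 7.25% of Zfp genes and 8.91% of all genes, with close shares by mark (8.03% of those marked in both MPP libraries and 7.41% of those with no peak). GGGCGG and CCGGAA were searched on both strands, CACGTG is its own reverse, and matches of different words can overlap at their edges. The last pair was added after the peak values were seen. GGGCGG and CCGGAA both hold a CG. The median CG ratio was 0.695 for Zfp genes marked in both MPP libraries and 0.540 for those with no peak, and the median GC content 56.7% and 52.3%. Whether the words differ by mark beyond this base content was not tested.

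Some Zfp promoters are near copies of each other. In 21 genes more than 50% of the 40-base words of a promoter recurred in another, non-overlapping promoter, and 38.1% of them were marked in each MPP library. Without such repeats 58.7% of genes were marked in MPP1 and 52.3% in MPP2. The copies fell in groups of unlike outcome. On chromosome 2 lay 10, of which 8 had no peak, and on chromosome 17 lay 7, each marked in at least 1 MPP library. The promoters of Zfp966 and Zfp967 are identical over all 300 bases, hold 5 CG and were not marked. Those of Zfp943 and Zfp758 share 292 bases with 0 mismatches and 16 gap bases. The gaps come from a shift of the ends and 1 internal t that only Zfp943 holds. Both genes were marked in both MPP libraries. Zfp943 had folds of 4.91 and 8.17 from 18 and 16 fragments, and Zfp758 had 4.91 and 7.53 from 18 and 15 fragments. These peaks also lie at the starts of neighbouring Zfp genes, Zfp942 beside Zfp943 and Zfp944 beside Zfp758. They cannot be assigned to either gene of a pair. In MPP1 the summit at Zfp943 lay 266 bp upstream of its start, outside the printed letters. The treatment of reads that map to several places is not given in the sources used here, so a peak at such a copy cannot be assigned to that copy alone, and its part in the unmarked copies was not tested.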

How the data were processed

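RXRA CUT&RUN peak lists of 1 HSC and 2 MPP libraries were used, 1 deposited list per library, so replicates were called separately. The submitters' processing notes name mm10 as the build, with the tools MACS2 2.1.4, Bowtie2 2.3.4.1, cutadapt 1.9.1 and Trim Galore 0.4.2. For settings, duplicate and multi-mapping reads and any control library, the sources used here give nothing. The authors' deposited fold is a ratio of summit pileup to local background, and −log10 of p and of q was used as the authors deposited it. The authors' deposited score was not used further. Total read counts were not used here, and pileups were solved from each peak's fold and p, coming out whole (within 0.001 in −log10 p) for at least 99.98% of peaks in each list.

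Gene positions came from RefSeq, and strand, start and promoter letters from RefSeq promoter windows that matched 331 of the 397 members by gene. Windows of 1 kb were overlapped with peaks in Python 3.11.15 with pandas 2.3.3, numpy 2.4.6 and scipy 1.17.1, and the overlaps were checked against bedtools 2.31.1 and tested on simulated data. Promoter pairs were aligned with Biopython 1.88. Intervals on shares are exact Clopper-Pearson and on pileups exact Poisson, both at 95% and for counting error only. With 1 HSC library no test was made and no p-value is given.

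Named genes were the 10 of highest HSC fold marked in all 3 libraries, the 10 with the best worse rank by fold in both MPP libraries without an HSC peak, those marked in HSC alone, the 5 largest clusters and role lists. Genes named outside this rule were chosen after their values were seen. The members, lists and comparisons were chosen with earlier results of these data known. Alternatives were another q threshold, list length, window, summit rule, gene end, tandem distance and cluster size, leaving out shared peaks, the 1% of highest folds or an MPP replicate, and, added after the data were seen, zinc finger genes of other names as neighbours, the words CCGGAA and CACGTG, isolated genes weighted to the promoter CpG classes of tandem genes, and the gene table's start for summit positions. Finger counts per protein were not run.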

Additional observations from a re-analysis of the deposited data

Results flagged for a closer look

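Genes named Zfp that the RefSeq table does not class as protein-coding, pseudogenes and antisense genes among them, lay outside the comparisons. Of 19 such genes 7 were marked in MPP1, and they are given because the comparisons left them out. That is a share of 36.8%, below the 41.2% of all protein-coding genes. They were Zfp783, Zfp862-ps, Zfp286os, Zfp652os, Zfp389, Zfp572 and Zfp520-ps. In MPP2, 3 were marked (Zfp652os, Zfp389 and Zfp520-ps, 15.8% beside 36.0%), each of them also marked in MPP1. In HSC 1 was (Zfp36l1-ps, 5.26% beside 8.21%). An antisense gene named for its partner can share the partner's start region, and a peak there cannot be assigned to either.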

How the results depend on the processing

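Of 14 alternatives in each library, 1 reversed the order of tandem and isolated Zfp genes at gene ends, in MPP2. In HSC the 14 include MPP lists as long as the HSC list, a setting that could not change the HSC values. With isolated genes weighted to the promoter CpG classes of tandem genes, an alternative added after the data were seen, the difference in MPP2 was −1.83 points. It covered only the 331 genes with a promoter, whose unweighted MPP2 shares were 52.3% for tandem and 50.0% for isolated genes. Of the other alternatives, 3 in HSC, 6 in MPP1 and 5 in MPP2 took the tandem or the isolated share out of its 95% interval. The cause was not tested beyond what each setting changes. At a q of at most 1e-05, marked Zfp genes numbered 8 in HSC, 139 in MPP1, 138 in MPP2, 95 in both MPP libraries and 5 in all 3. These are 2.02%, 35.0%, 34.8%, 23.9% and 1.26% of the Zfp genes, beside 2.00%, 27.4%, 25.9%, 17.3% and 1.01% of all genes. The tandem minus isolated differences were 1.49, 13.22 and 3.53 points in HSC, MPP1 and MPP2. With MPP lists as long as the HSC list the counts were 39 and 53 in MPP1 and MPP2, 23 in both and 6 in all 3 (5.79% and 1.51%, beside 4.75% and 1.44% of all genes), with MPP differences of 2.87 and 3.93 points. A window of 500 bp gave 17.76 points in MPP1. A window of 5 kb gave 50 genes in HSC and 43 in all 3 (12.6% and 10.8%, beside 11.5% and 9.27% of all genes), with differences of 1.58, 9.57 and 1.27 points. Peaks that reach no gene outside the Zfp set gave 19.83 and 17.12 points in the MPP libraries. Under that rule only tandem genes could keep shared peaks. The other gene end alone gave 1, 11 and 10 genes in HSC, MPP1 and MPP2, 8 in both MPP and 1 in all 3. In each library that share lay below that of all genes (0.302%, 3.32% and 3.02%, beside 0.692%, 5.89% and 3.82%), with differences of 0.51, 0.65 and 0.14 points. Leaving out an MPP replicate gave 203 to 224 genes in place of both MPP libraries and 24 to 29 in place of all 3. The limit to genes with several C2H2 fingers was not run, since protein sequences were not used here. Weak peaks in HSC rested on as few as 5 fragments, so Zfp genes without an HSC peak are not shown to lack RXRA.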
